A study of Homo sapiens with 6 samples.

Results

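The peaks on chromosome 20 were taken from 4 peak lists of a chromatin immunoprecipitation sequencing (ChIP-seq) experiment of plasminogen activator inhibitor-1 (PAI-1). All lines of the lists that lay on chromosome 20 of hg19 were kept, and lines with the same start and end were counted once. This gave 3413 of 96423 peaks in RT112 replicate 1, 2291 of 60227 in RT112 replicate 2, 2145 of 109287 in UM-UC-3 replicate 1 and 2182 of 114094 in its replicate 2, together 10031 of 380031. RT112 and UM-UC-3 are established human bladder cancer cell lines, and the libraries were made from nuclear extracts with anti-PAI-1 antibody clone 3F2. Each cell line had 2 ChIP libraries, labelled as biological replicates, and 1 input library, which was not analysed here. Chromosome 20 was selected because its peak density was high in RT112, so its densities, and the values of its bins, genes and scores that move with them, are given as a description and not as a test.

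PAI-1 is a serine protease inhibitor that blocks the tissue-type and urokinase-type plasminogen activators outside the cell and thereby limits the breakdown of fibrin. The study asked whether the PAI-1 found in the nucleus of bladder cancer cells is associated with DNA. In ChIP-seq, DNA fragments bound by the antibody's target are sequenced, and a peak is a stretch where such fragments pile up above a background. Chromosome 20 is a small, nearly metacentric chromosome. Its short arm (20p) holds long neuronal and signalling genes such as MACROD2 and PLCB1, and its long arm (20q), which is often gained in carcinomas, holds the survival gene BCL2L1, the mitotic kinase gene AURKA and clusters of genes for secreted protease inhibitors and host defence proteins. DNA copy number was not analysed here.

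A few of the peaks with the best ranks by score are shown first, because they are among the highest-scoring loci of the chromosome. The score is the fifth column of the lists, read as a −log10 p or q value of the peak caller, and it was compared only within a library. For each cell line the peaks found in both replicates were ranked by the mean of the ranks of their scores, and a further set was ranked over all 4 libraries. Each sequence is the reference plus strand of hg19 (GRCh37), 5′ to 3′, at the middle of the peak and at most 300 bases long. Capitals mark runs of at least 3 repeats of a unit of at most 6 bases that span at least 12 bases.
RT112 peak in PTPRT (chr20:41350083-41350382): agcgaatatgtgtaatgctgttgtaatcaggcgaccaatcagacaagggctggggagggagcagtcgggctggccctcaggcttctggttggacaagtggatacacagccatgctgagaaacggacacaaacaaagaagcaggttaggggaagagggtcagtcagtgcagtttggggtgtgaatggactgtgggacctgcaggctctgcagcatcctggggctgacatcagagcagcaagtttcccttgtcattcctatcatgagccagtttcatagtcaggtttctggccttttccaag
RT112 peak near SPTLC3 (chr20:12819477-12819734): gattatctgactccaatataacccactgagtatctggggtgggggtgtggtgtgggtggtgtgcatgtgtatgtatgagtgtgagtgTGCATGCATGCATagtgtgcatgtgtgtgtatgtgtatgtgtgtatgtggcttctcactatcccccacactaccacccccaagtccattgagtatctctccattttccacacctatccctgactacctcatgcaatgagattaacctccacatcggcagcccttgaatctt
UM-UC-3 peak in APCDD1L (chr20:57061503-57061802): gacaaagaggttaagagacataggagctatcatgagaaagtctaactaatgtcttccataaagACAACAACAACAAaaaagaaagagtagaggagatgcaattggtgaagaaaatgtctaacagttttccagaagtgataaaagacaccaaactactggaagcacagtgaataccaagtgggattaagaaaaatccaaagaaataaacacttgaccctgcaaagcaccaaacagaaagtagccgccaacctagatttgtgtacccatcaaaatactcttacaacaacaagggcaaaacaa
All-library peak in PREX1 (chr20:47298325-47298624): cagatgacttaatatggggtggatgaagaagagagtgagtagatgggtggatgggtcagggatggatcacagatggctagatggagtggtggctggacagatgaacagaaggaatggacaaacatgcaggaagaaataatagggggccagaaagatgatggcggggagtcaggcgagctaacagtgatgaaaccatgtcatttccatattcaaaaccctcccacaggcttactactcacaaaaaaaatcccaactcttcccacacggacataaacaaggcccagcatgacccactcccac
All-library peak in CDH22 (chr20:44927278-44927567): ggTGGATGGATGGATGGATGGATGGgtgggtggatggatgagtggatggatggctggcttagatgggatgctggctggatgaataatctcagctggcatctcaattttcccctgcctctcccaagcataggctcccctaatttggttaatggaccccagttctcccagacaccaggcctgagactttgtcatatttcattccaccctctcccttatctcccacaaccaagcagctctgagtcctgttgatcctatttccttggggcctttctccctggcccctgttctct

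The RT112 peak in PTPRT, a receptor-type tyrosine phosphatase gene, was intronic, with scores of 56.2 and 59.0 in RT112, a score of 3.35 in UM-UC-3 replicate 1 and no peak in the other UM-UC-3 library. The RT112 peak near SPTLC3, a subunit gene of serine palmitoyltransferase, was intergenic, 170 kb from that gene. It was listed in the RT112 libraries only, at 44.7 and 59.3, and had 13 bases in a repeat run. The UM-UC-3 peak lay in an intron of APCDD1L and scored 35.7 and 29.5 in UM-UC-3, with no peak in either RT112 library, and also had 13 bases in a repeat run.

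The all-library peak in PREX1, a Rac guanine nucleotide exchange factor gene, was intronic, with scores of 43.6, 46.7, 16.4 and 18.9 (RT112 replicates 1 and 2, then UM-UC-3 replicates 1 and 2, the order used for every set of 4 values below). The all-library peak in an intron of the cadherin gene CDH22 had scores of 28.1, 23.4, 21.9 and 29.5, and 23 bases near its start formed a run of a 4-base repeat. The printed peaks are examples and not all of those ranked best.

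Peaks on chromosome 20 made up 3.54% and 3.80% of all peaks in the RT112 libraries, and 1.96% and 1.91% in those of UM-UC-3, while the chromosome holds 2.19% of the autosomal length. Chromosome 20 had 54.2, 36.4, 34.0 and 34.6 peaks per Mb. The autosomes as a whole had 31.4, 19.6, 36.1 and 37.7 peaks per Mb, and each density below was divided by the autosomal density of the same library to give a relative density. The relative density of chromosome 20 was 1.72 and 1.85 in RT112 (1.79 ± 0.0908, SD, n = 2) and 0.942 and 0.919 in UM-UC-3 (0.930 ± 0.0165, SD, n = 2). The RT112 mean was thus 1.92 times that of UM-UC-3, and the libraries of the cell lines did not overlap. Among the 22 autosomes chromosome 20 ranked 1 in both RT112 libraries and 12 and 13 in those of UM-UC-3. The ratio of the cell lines was also the highest of the autosomes, followed by chromosome 14 at 1.36 and chromosome 18 at 1.33.

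Both arms took part in this. The short arm, which ends at the centromeric gap, held 1609, 1069, 885 and 912 peaks, and the long arm, which begins after it, held 1804, 1222, 1260 and 1270. No peak lay between them. The relative density of 20p was 1.94 and 2.06 in RT112 (2.00 ± 0.0871, SD, n = 2) and 0.928 and 0.917 in UM-UC-3 (0.922 ± 0.00792, SD, n = 2), a ratio of 2.17. The relative density of 20q was 1.71 and 1.85 in RT112 (1.78 ± 0.102, SD, n = 2) and 1.04 and 1.002 in UM-UC-3 (1.02 ± 0.0247, SD, n = 2), a ratio of 1.75. Of 39 autosomal arms, 20p ranked 1 and 20q ranked 2 in both RT112 libraries, ahead of 8q at 1.64 and 1.69. In UM-UC-3 20p ranked 30 in both and 20q ranked 21 and 24, and the highest arm there was 5p at 2.08 in both.

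**Figure D1:**
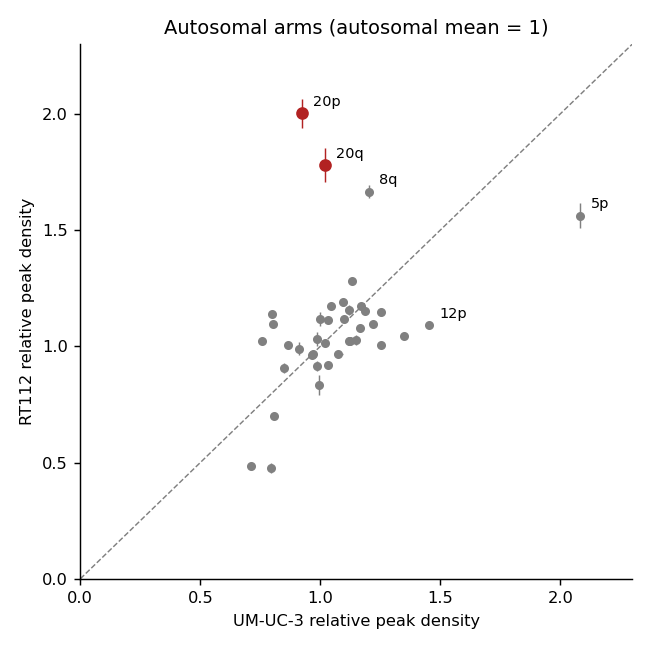
Relative peak density of the 39 autosomal arms (autosomal mean of a library = 1), UM-UC-3 on the x axis and RT112 on the y axis. Points are means of 2 libraries, lines run from the lower to the higher library, and the dashed line marks equal values. Chromosome arms 20p (2.00 against 0.922) and 20q (1.78 against 1.02) lie farthest above it, and 5p lies to the right.

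The arms were also compared within each library, where the number of peaks in the list cancels. The 20q density was 0.880 and 0.897 times the 20p density in RT112 (0.889 ± 0.0122, SD, n = 2) and 1.12 and 1.09 times in UM-UC-3 (1.11 ± 0.0173, SD, n = 2). The short arm was therefore the denser arm in both RT112 libraries and the sparser arm in both UM-UC-3 libraries. The difference between the cell lines was -0.217, larger than the spread of the replicates (two-sided exact permutation test, p = 0.33, the lowest that this test can reach with 2 against 2 libraries).

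Along the chromosome the excess in RT112 was broad and not confined to a few stretches. Of the 64 bins of 1 Mb, 59 had at least 50% called bases and were used, and the 5 left out lay around the centromere or at the end of 20q. Both RT112 libraries lay above both UM-UC-3 libraries with means at least 1.5-fold apart in 45 bins (76.3%), where 12.7% of the 2694 autosomal bins met the same rule. All 26 bins of 20p and 19 of the 33 bins of 20q were among them. The means were at least 2-fold apart in 27 bins (45.8%, against 2.64% of autosomal bins). Without a limit on size, RT112 lay above UM-UC-3 in 56 bins (33.0% of autosomal bins), and the libraries overlapped in the other 3. No bin had UM-UC-3 higher by the 1.5-fold rule, which 16.1% of autosomal bins met. Since the chromosome was selected on this excess, the counts describe how it was spread and nothing further is read from them.

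**Figure D2:**
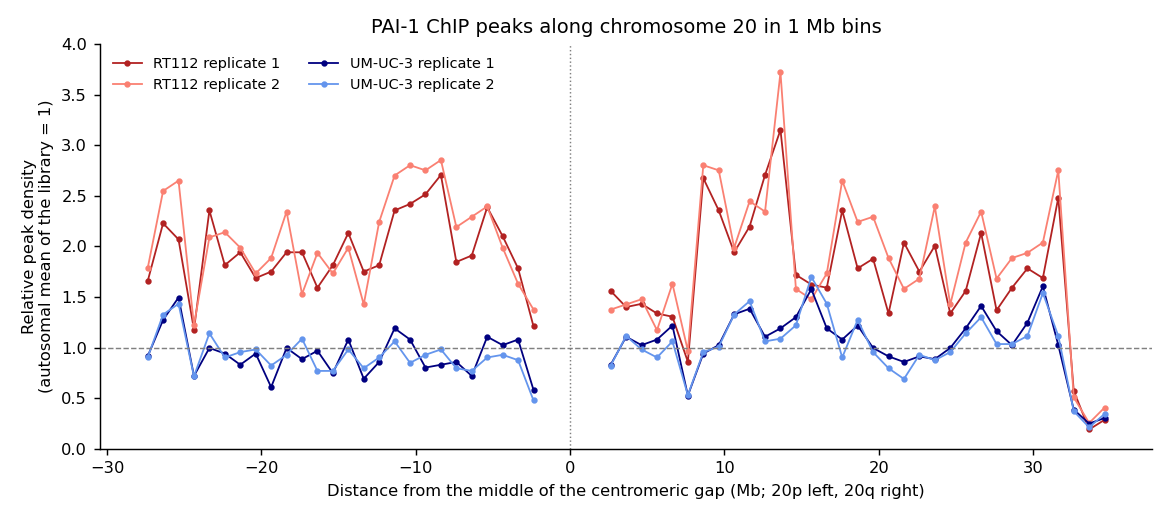
Relative peak density (autosomal mean of a library = 1) in the 59 bins of 1 Mb, against the distance of the bin's middle from the middle of the centromeric gap in Mb, with 20p on the left and 20q on the right. Each line is 1 library. The RT112 lines (medians 1.81 and 1.99) run above the UM-UC-3 lines (medians 0.996 and 0.955) nearly throughout, peak at 3.15 and 3.72 in the PTPRT bin, and all 4 lines fall below 1 in the last 3 bins.

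The 5 bins with the highest ratio of RT112 to UM-UC-3 lay at 19, 18, 41, 36 and 21 Mb, named by their start. The bin at 19 Mb, which holds SLC24A3, RIN2 and NAA20, had 85, 56, 30 and 37 peaks, relative densities of 2.71, 2.85, 0.830 and 0.982, and a ratio of 3.07. Its neighbour at 18 Mb, into which the epithelial transcription factor gene OVOL2 reaches, had 79, 54, 29 and 35 peaks and a ratio of 3.04. The bin at 41 Mb holds only PTPRT among protein-coding genes and had 99, 73, 43 and 41 peaks. Its relative densities of 3.15 and 3.72 were the highest of the chromosome in RT112, while those of UM-UC-3 were 1.19 and 1.09. The bin at 36 Mb had a ratio of 2.89. It holds part of SRC, the founding non-receptor tyrosine kinase gene, and TGM2, which encodes tissue transglutaminase. The lipopolysaccharide-binding protein genes LBP and BPI are also found there. The bin at 21 Mb had a ratio of 2.82 and holds the homeobox gene NKX2-2 and the paired box gene PAX1. Genes are named here as landmarks and need not carry the excess of their bin. OVOL2 had 0, 1, 1 and 1 peaks, SRC had 1, 0, 0 and 0, and NKX2-2 and PAX1 had none in any library.

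The 5 bins with the lowest ratio all lay on 20q, at 43, 61, 62, 58 and 33 Mb. The bin at 43 Mb had 51, 29, 57 and 64 peaks, relative densities of 1.62, 1.48, 1.58 and 1.70 and a ratio of 0.947, so the libraries of the cell lines overlapped. It holds the nuclear receptor gene HNF4A, the adenosine deaminase gene ADA, the Hippo pathway kinase gene STK4, the semenogelin genes SEMG1 and SEMG2 and the protease inhibitor genes PI3 and SLPI. The bin at 58 Mb, with PHACTR3 and SYCP2, was dense in all 4 libraries, at 1.69, 2.04, 1.61 and 1.54. The bin at 33 Mb, with ITCH and NCOA6, had 1.34, 1.17, 1.08 and 0.902. NCOA6 itself differed from its bin, with 12, 8, 3 and 2 peaks and a ratio of 5.80.

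The last 3 bins of 20q, from 60 to 63 Mb, were sparse in every library. Their mean relative density was 0.350, 0.391, 0.314 and 0.310, from 33, 23, 34 and 35 peaks. They hold 64 protein-coding genes and have a GC content of 55.5%, where the other bins of the chromosome have 43.6%. The 5 longest stretches without a peak in any of the 4 libraries, 121 to 200 kb long, all lay within these bins. The longest, chr20:60556448-60756522, covers part of TAF4 (a subunit of the general factor TFIID), LSM14B, PSMA7 and SS18L1. The relation of peak density to base composition was weaker without the last 3 bins, and a negative one remained only in RT112. Pearson's r of relative density with GC content was -0.54, -0.49, -0.27 and -0.31 over 59 bins. It was -0.23, -0.19, 0.15 and 0.076 over the 56 bins without the last 3. Spearman's rank correlation over the 59 bins was -0.43, -0.38, -0.042 and -0.11. These values describe bins of single libraries, which share the caller and the reference.

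The profile along the chromosome was alike in replicates. Pearson's r over the 59 bins was 0.917 between the RT112 libraries and 0.922 between the UM-UC-3 libraries, and 0.476 to 0.499 when an RT112 library was set against a UM-UC-3 library, in 4 pairs. The last 3 bins, low in every library, are part of each of these values. Spearman's rank correlation was 0.870 and 0.845 between replicates, and 0.264 to 0.369 across the cell lines. Over the 2694 autosomal bins Pearson's r was 0.888 and 0.945 between replicates and 0.467 to 0.510 across the cell lines, so the pattern was not particular to this chromosome.

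Steps in the log2 ratio of RT112 to UM-UC-3 were looked for by least-squares segmentation, which splits the row of bins where a change in mean pays for a penalty. It gave 3 segments. From 0 to 26 Mb, all of 20p, the ratio was 2.18 (log2 ratio 1.04, single bins 0.65 to 1.52). From 30 to 60 Mb it was 1.75 (log2 ratio 0.73, single bins -0.07 to 1.51), and from 60 to 63 Mb 1.19 (log2 ratio 0.15, single bins -0.03 to 0.42). The step at 30 Mb falls at the centromere, since the bins from 26 to 30 Mb were not used, and the first bin after it holds BCL2L1, the spindle assembly gene TPX2 and the chromatin regulator gene ASXL1. The step at 60 Mb falls in the bin with TAF4 and the laminin gene LAMA5.

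**Figure D3:**
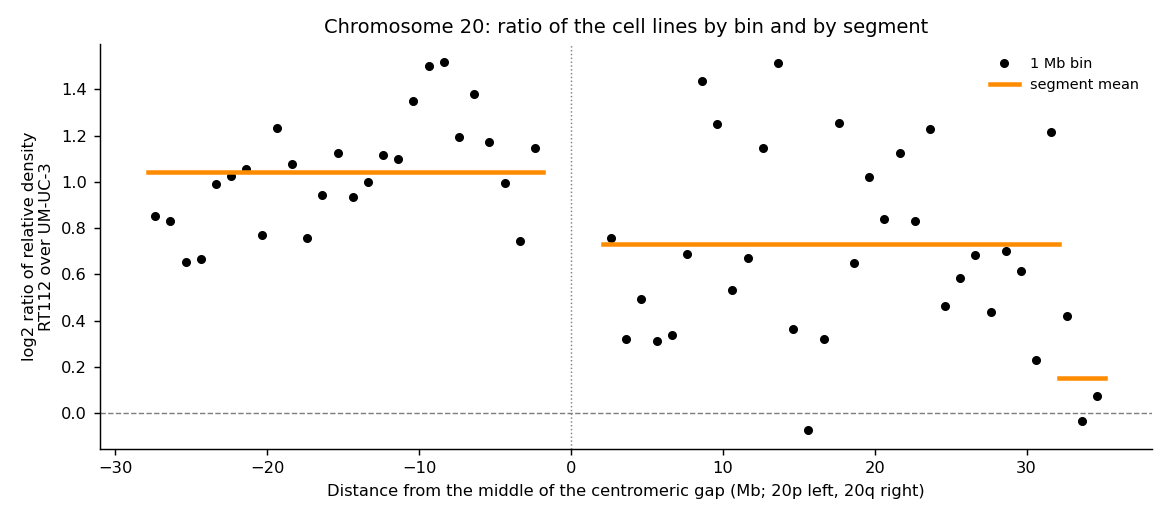
The log2 ratio of relative peak density, RT112 over UM-UC-3 (means of 2 libraries), in the 59 bins of 1 Mb against the distance from the middle of the centromeric gap in Mb. Points are bins and horizontal lines are the means of the 3 segments, at 1.04 on 20p, 0.73 on most of 20q and 0.15 at its end. The bins of 20p lie closer together (0.65 to 1.52) than those of the middle segment (-0.07 to 1.51).

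These steps were not equally stable. When single libraries were set against each other, in 4 pairs across the cell lines, a step within 2 Mb of 30 Mb was found in 3 and one near 60 Mb in 1. The pairs with UM-UC-3 replicate 2 gave 5 and 6 steps and those with UM-UC-3 replicate 1 gave 1 each. Without UM-UC-3 replicate 1 the count was 6, and it was 1 without UM-UC-3 replicate 2 or without RT112 replicate 1. Both pairs with UM-UC-3 replicate 2 had steps at 36, 42 and 45 Mb. The dense RT112 stretch around PTPRT lies between 36 and 42 Mb. The bins from 42 to 45 Mb had low ratios of the cell line means, at 1.31, 0.947 and 1.27. Segmentation of single libraries gave steps at 36 and 60 Mb in both RT112 libraries and at 60 Mb in both UM-UC-3 libraries. RT112 replicate 1 also had steps at 25 and 42 Mb, and RT112 replicate 2 had one at 24 Mb. UM-UC-3 replicate 1 had a further step at 38 Mb. No single library had a step within 2 Mb of 30 Mb, so that step was seen only in ratios of the cell lines. The ratio of replicates of the same cell line gave no step.

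At the level of genes, 285 of the 545 protein-coding genes of chromosome 20 (52.3%) had a peak inside the gene or in its 3 kb flanks in both RT112 libraries, where 40.4% of the 19222 autosomal genes did. For UM-UC-3 it was 288 genes (52.8%, against 54.2% of autosomal genes), and 216 genes (39.6%, against 33.1%) had a peak in all 4 libraries. On 20p the counts were 108 and 97 of 184 genes, and on 20q 177 and 191 of 361 genes, for RT112 and UM-UC-3. No library had a peak at 119 genes, whose median length of 8.32 kb compares with 24.3 kb for all genes of the chromosome. Among the 160 genes of 50 kb or longer, 81 (50.6%) had both RT112 libraries above both UM-UC-3 libraries and means 1.5-fold apart, where 21.5% of such autosomal genes did. UM-UC-3 was higher by the same rule at 17 (10.6%, against 27.1%).

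Of the genes with the most peaks 11 are described, all of them long, and 10 of these had both RT112 libraries above both UM-UC-3 libraries in relative density. By the same rule RT112 lay above UM-UC-3 in 56 of the 59 bins, so the count is not read as a trait of these genes. The share of all long genes that met this rule was not counted. MACROD2, which spans 2058 kb (chr20:13976015-16033842) and encodes an enzyme that removes ADP-ribose from proteins, had 116, 76, 63 and 69 peaks. Its relative density was 1.79, 1.88, 0.845 and 0.887, close to that of the whole arm. PTPRT (chr20:40701392-41818610) had 102, 73, 39 and 37 peaks and stood out in RT112, with a mean relative density of 3.10 against 0.918 in UM-UC-3.

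The phospholipase C genes PLCB1 and PLCB4, which lie side by side on 20p, had 50, 34, 20 and 28 peaks and 27, 24, 16 and 15 peaks. SLC24A3, a sodium, potassium and calcium exchanger gene, had 54, 34, 14 and 18 peaks, mean relative densities of 3.34 (RT112) and 0.838 (UM-UC-3), and a ratio of 3.99. PCSK2, a prohormone convertase gene of neuroendocrine cells, had 31, 26, 15 and 11 peaks, and its mean relative density of 4.37 in RT112 was the highest of the genes of 50 kb or longer. The transcription factor gene TSHZ2 had 31, 26, 14 and 11 peaks and a ratio of 3.40.

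KIF16B, an endosomal kinesin gene, had 21, 13, 15 and 13 peaks, and the ciliary gene CFAP61 had 18, 11, 12 and 12. CDH4, the gene for R-cadherin, reached 20, 11, 13 and 13 peaks only through its length of 688 kb, and its relative density was below 1 in all 4 libraries (means 0.862 and 0.507). PHACTR3, a regulator of protein phosphatase and actin, had 15, 12, 17 and 21 peaks, was dense in both cell lines (means 1.97 and 1.86), and its libraries overlapped.

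**Figure D4:**
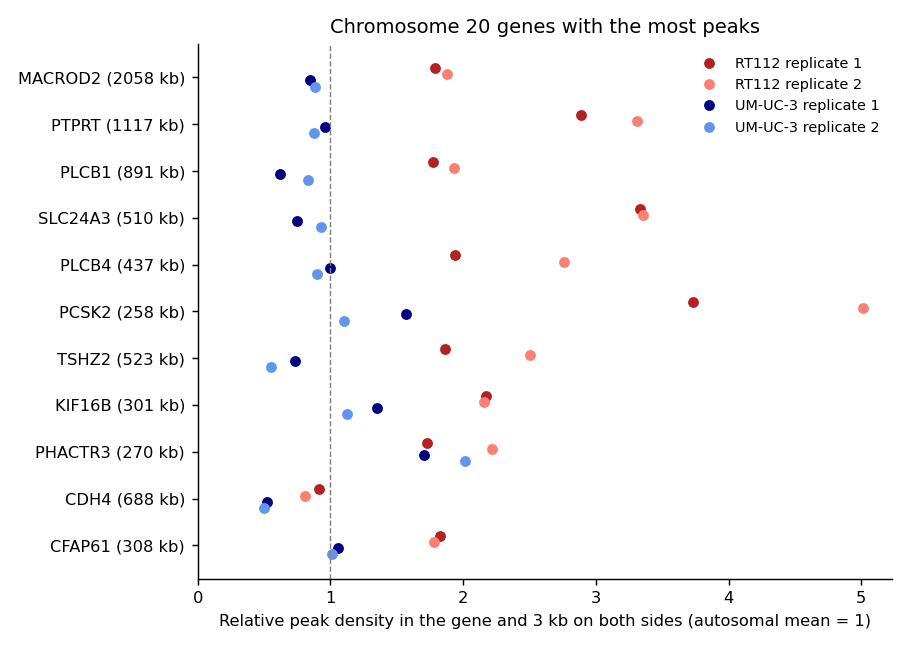
Relative peak density (autosomal mean of a library = 1) in 11 of the protein-coding genes of chromosome 20 with the best mean rank of peak count, each gene with 3 kb on both sides, 1 point per library; the length of each gene is given in kb. The RT112 points lie to the right of the UM-UC-3 points in 10 of the 11 genes and reach 3.73 and 5.01 at PCSK2. At PHACTR3 the cell lines overlap, and at CDH4 all points lie below 1.

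By relative density among genes of 50 kb or longer, the 5 highest in RT112 were PCSK2, STK35, KAT14, RALY and TMC2. STK35, a nuclear kinase gene, had 7, 8, 2 and 4 peaks, and KAT14, a subunit of a histone acetyltransferase complex, had 7, 4, 2 and 4. RALY, an RNA-binding protein gene, had 13, 9, 9 and 9 peaks and was dense in UM-UC-3 too (means 3.61 and 2.02). TMC2, a gene of hair cell mechanotransduction, had 14, 7, 6 and 7. The 5 highest in UM-UC-3 were B4GALT5, RTF2, RIMS4, EFCAB8 and HM13. EFCAB8, which encodes an EF-hand protein, had 1, 1, 9 and 9 peaks and mean relative densities of 0.380 (RT112) and 2.24 (UM-UC-3), the opposite of the chromosome as a whole. HM13, the gene for signal peptide peptidase, had 3, 2, 6 and 5 peaks. The glycosyltransferase gene B4GALT5 had 3, 6, 9 and 9, the replication fork gene RTF2 had 4, 2, 5 and 5, and the synaptic gene RIMS4 had 8, 4, 5 and 6. Several of these counts are below 10, so a difference of a few peaks moves the density.

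Of 30 genes of 20q with roles in cancer, 19 had a peak in both RT112 libraries, 20 in both UM-UC-3 libraries and 18 in all 4. For all genes of the chromosome these shares were 52.3%, 52.8% and 39.6%, as given above, and the genes of the list are longer, with a median of 59.7 kb against 24.3 kb. Pooled over these genes the relative density was 1.83, 1.94, 0.846 and 0.797. PTPRT alone held 102 and 73 of the 220 and 146 pooled RT112 peaks. The median over the genes of the list was lower, at 1.21 in RT112 and 0.747 in UM-UC-3. EYA2, a transcriptional coactivator and phosphatase gene, had 21, 17, 8 and 6 peaks and a ratio of 4.03, the largest of the 10 named by peak count. GNAS, the gene for a stimulatory G protein subunit (5, 5, 1 and 1 peaks, ratio 7.63), and ASXL1 (5, 1, 1 and 0 peaks, ratio 7.59) had larger ratios from few peaks and are named after their values were seen. PREX1 had 13, 8, 7 and 9 peaks, the calcium-responsive transcription factor gene NFATC2 had 9, 6, 9 and 9, and the nuclear receptor coactivator gene NCOA3 had 6, 5, 4 and 5. The tyrosine phosphatase gene PTPN1 had 6, 2, 5 and 4 peaks, the bone morphogenetic protein gene BMP7 had 4, 3, 6 and 2, and the topoisomerase gene TOP1 had 3, 2, 5 and 4. HNF4A, a hepatocyte nuclear factor gene, had 4, 2, 4 and 7 peaks and a ratio of 0.773. BCL2L1, with 2, 1, 3 and 2 peaks, and AURKA, with 3, 1, 1 and 1, are added here because the background names them. The 7 genes of the list with no peak in any library were E2F1, CEBPB, SALL4, CTCFL, BIRC7, EEF1A2 and PTK6, and the last 3 lie in the sparse end of 20q.

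Of 30 genes of 20p with roles in development, signalling and the cell cycle, 19 had a peak in both RT112 libraries, 19 in both UM-UC-3 libraries and 16 in all 4, and 6 had none in any library. For all 184 genes of 20p the shares were 58.7%, 52.7% and 42.9%, and the list has a median length of 58.7 kb. Pooled relative density was 1.90, 2.04, 0.807 and 0.860. Beside MACROD2, the phospholipases, SLC24A3 and KIF16B, the kinase gene PAK5 had 21, 16, 8 and 10 peaks and a ratio of 3.05. The Rab5-directed exchange factor gene RIN2 had 12, 12, 7 and 8 peaks, and the receptor phosphatase gene PTPRA had 14, 9, 9 and 7. RALGAPA2, a Ral GTPase-activating protein gene, had 12, 11, 7 and 6, and the protease gene TASP1 had 15, 6, 6 and 8. The 6 genes without a peak were PCNA, INSM1, NKX2-2, PAX1, FOXA2 and CD93.

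Gene clusters gave a further view, since each is a contiguous block in which a peak was counted once. The beta-defensins, small antimicrobial peptides, lie in a block of 6 genes on 20p (chr20:64891-244737) and a block of 7 genes at the start of 20q (chr20:29842467-30067560). The first held 18, 13, 6 and 8 peaks and the second 24, 11, 11 and 7, with mean relative densities of 3.43 and 2.94 in RT112 and of 1.05 and 1.09 in UM-UC-3. The block of 10 cystatin genes from CSTL1 to CST5, which encode cysteine protease inhibitors, held 33, 21, 22 and 21 peaks and had a ratio of 1.82. The SIRP block of 5 genes for immune signal-regulatory proteins held 32, 22, 21 and 23 peaks, with a ratio of 1.80, and the block of 8 BPI fold genes from BPIFB2 to BPIFB1 held 21, 19, 17 and 18, with a ratio of 1.73.

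The block of 14 WAP-type protease inhibitor genes from WFDC5 to WFDC3 (chr20:43735093-44423571) differed from these. It held 38, 26, 37 and 51 peaks, its relative density was 1.76, 1.92, 1.49 and 1.97, and the libraries of the cell lines overlapped. It reaches into the bin at 43 Mb in which the ratio was lowest. Its genes WFDC6 (1, 1, 3 and 3 peaks), EPPIN (1, 0, 3 and 3) and WFDC13 (0, 0, 3 and 3) had more peaks in UM-UC-3, and neighbouring genes here share peaks because their 3 kb flanks overlap.

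The counts for single genes of these families rest on few peaks each and are read beside the shares of all chromosome 20 genes, 52.3% for RT112, 52.8% for UM-UC-3 and 39.6% for all 4 libraries. Among 11 cystatin genes, 6 had a peak in both RT112 libraries and 3 in both UM-UC-3 libraries, and only CST3, the gene for cystatin C, had one in all 4, with 1, 1, 2 and 2 peaks. CST11 (2, 1, 0 and 0), CST5 (2, 1, 0 and 0), CST9 (1, 1, 0 and 0) and CST2 (1, 1, 0 and 0) had none in UM-UC-3, and CST9L and CST1 (0, 0, 1 and 1 each) had none in RT112. Of 13 beta-defensin genes, 6 had a peak in both RT112 libraries and 5 in both UM-UC-3 libraries, with DEFB119 (3, 1, 3 and 3) and DEFB125 (4, 2, 1 and 1) in all 4. Of 9 BPI fold genes, 8 had a peak in both RT112 libraries and 7 in all 4. BPIFA1, an airway surface protein gene of only 7.32 kb, had 3 peaks in each library. All 5 SIRP genes had a peak in every library, among them the macrophage receptor gene SIRPA with 5, 3, 3 and 4. Of the 14 WAP genes, 5 had a peak in both RT112 libraries and 8 in both UM-UC-3 libraries.

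Fewer genes had a peak near their start in RT112 than in UM-UC-3, on chromosome 20 as on the autosomes. A peak lay within 3 kb of the start of the outermost transcript in both libraries at 30 RT112 genes (5.50%, against 4.01% of autosomal genes) and at 59 UM-UC-3 genes (10.8%, against 9.12%). In single libraries the numbers were 66, 49, 83 and 72. The cell lines shared 7 of these genes, which is 23.3% of the RT112 genes and 11.9% of the UM-UC-3 genes: TGM3 (epidermal transglutaminase), DEFB119, SCAND1, ADA, SPINT3 (a Kunitz-type inhibitor), CASS4 and ZNF831. They are named because of this count and not by the rule for named genes.

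With all annotated transcripts considered, 14.9%, 15.5%, 19.02% and 17.9% of the chromosome 20 peaks lay within 3 kb of a transcript start, where the autosomal values were 15.8% to 16.1%. Introns held 41.6%, 40.6%, 39.8% and 39.6% of the peaks, below the autosomal 45.9% to 46.0% in every library. Intergenic DNA held 37.5%, 38.1%, 35.2% and 36.6%, above the autosomal 33.2% to 33.5% in every library. Both cell lines thus had a smaller share of intronic and a larger share of intergenic peaks here than on the autosomes; these shares are a description, without a test.

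The median score on chromosome 20 was above that of the autosomes in both RT112 libraries and in UM-UC-3 replicate 2. It was 4.94, 4.32, 3.88 and 4.31 on chromosome 20 and 3.80, 4.09, 3.88 and 3.85 on the autosomes. By the median chromosome 20 ranked 1, 1, 7 and 1 of the 22 autosomes. The rank of 7 was a tie with other autosomes at 3.88, the lowest median of any autosome in that library. A score of at least 10 was reached by 14.4% and 12.1% of the chromosome 20 peaks in RT112, where 10.1% and 8.75% of the autosomal peaks did, and by 9.65% and 10.2% in UM-UC-3, where 9.17% and 9.20% did. By this share chromosome 20 ranked 1 of 22 autosomes in both RT112 libraries and 6 and 2 in those of UM-UC-3. At a score of at least 30 there were 27, 19, 4 and 3 peaks. A score depends on the depth of its library, which is unknown, so scores were not set against each other across libraries. None of the top scores of a library lay here: the highest on chromosome 20 were 68.8, 59.3, 35.7 and 35.6, and the highest of the whole lists were 126.8, 115.1, 91.3 and 83.6.

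**Figure D5:**
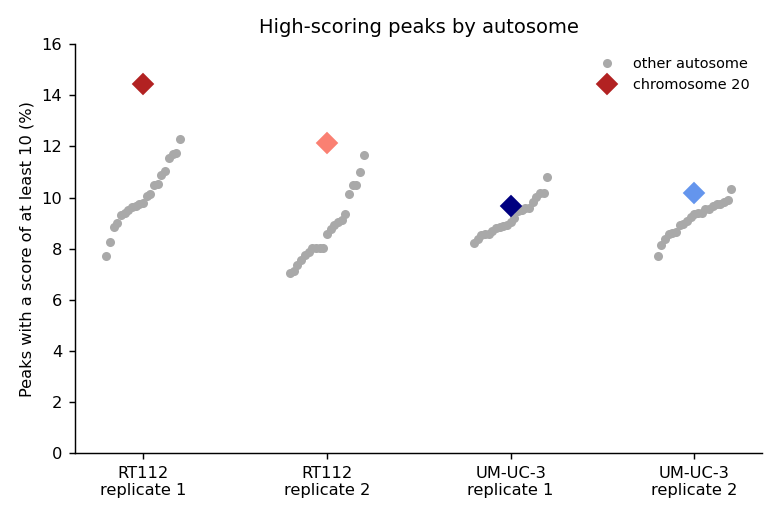
Share of peaks with a score of at least 10 (%) on each of the 22 autosomes in the 4 libraries. Diamonds are chromosome 20 and grey points the other autosomes, in ascending order from left to right within a library. Chromosome 20 is the highest in both RT112 libraries (14.4% and 12.1%) and lies within the range of the other autosomes in UM-UC-3 (9.65% and 10.2%).

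Between replicates, 45.0% of the chromosome 20 peaks of RT112 replicate 1 overlapped a peak of replicate 2, and 67.3% the other way, above the autosomal 38.2% and 61.2%. In UM-UC-3 it was 74.5% and 73.2%, beside 74.8% and 71.8% on the autosomes. The overlap rose with the score in every library: from the lowest-scoring 25% to the highest-scoring 25% it went from 22.2% to 75.4%, from 53.7% to 82.2%, from 54.9% to 88.6% and from 53.8% to 88.5%. More than 3 in 4 of the lowest-scoring peaks of RT112 replicate 1 were thus not found again, and that library is the larger of its pair.

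Between the cell lines few positions were shared. Of the RT112 peaks, 5.60% and 5.48% of replicate 1 and 5.50% and 5.02% of replicate 2 overlapped a peak of UM-UC-3 replicates 1 and 2, below the autosomal 5.69% to 6.39%. Of the UM-UC-3 peaks, 8.95% and 8.57% overlapped a peak of RT112 replicate 1, where 4.95% and 4.85% of autosomal peaks did, and 5.87% and 5.27% a peak of replicate 2, where 3.40% and 3.33% did. The shares of UM-UC-3 peaks are read beside the higher RT112 density on this chromosome, which moves in the same direction, and its part in them was not tested. Peaks with a counterpart in all 3 other libraries numbered 79, 75, 74 and 74, which is 2.31%, 3.27%, 3.45% and 3.39% of the lists, where the autosomal shares were 2.19%, 3.41%, 1.86% and 1.79%. Their median scores were 7.73, 5.81, 6.61 and 7.46, and those of the remaining peaks 4.93, 4.27, 3.88 and 3.97.

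The peaks themselves were narrow and avoided extremes of base composition. Median widths were 304, 274, 277 and 274 bp, close to those on the autosomes (293, 264, 274 and 270 bp), and the peaks covered 1175, 706, 658 and 666 kb. Their mean GC content was 43.97%, 44.2%, 43.4% and 43.3%, near the 44.1% of the whole chromosome and above the 42.3%, 42.7%, 40.7% and 40.7% of autosomal peaks. The cell lines differed by 0.714 percentage points (two-sided exact permutation test, p = 0.33, the lowest attainable), and by 0.268 points with the 25% of peaks of the highest score. In the central 200 bp, a GC content of at least 60% was found in 0.322% to 0.653% of the peaks and in 5.10% of all 200 bp tiles of the chromosome. A GC content of at most 30% was found in 2.36% to 4.95% of the peaks and in 6.36% of the tiles. CpG dinucleotides numbered 0.886 to 0.951 per 100 bases in the peaks and 1.20 in the tiles.

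Strand asymmetry of purines was rare but more frequent than in the tiles. A purine share at least 25 percentage points away from an even split was found in 0.996%, 1.27%, 0.746% and 0.779% of the peak centres and in 0.409% of the tiles. It rose to 2.64% and 4.32% in the RT112 peaks with a score of at least 10, and was 0.966% and 1.80% in those of UM-UC-3. These sets held 493, 278, 207 and 222 peaks, so each share rests on few peaks. A run of 15 A, or of T on the other strand, was found in 0.960% to 1.68% of the centres and in 3.02% of the tiles. A run of 3 GGAA units on either strand was found in 0.326% to 0.469% of the centres, which is 7 to 16 peaks a library, and in 0.223% of the tiles. These are counts of letters in windows of equal length and say nothing of a bound factor.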

How the data were processed

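ChIP-seq peak lists of 4 libraries, 2 replicates each of RT112 and UM-UC-3, were analysed. Groups and replicate numbers came from the sample labels, and the labels name no treatment. The authors used Bowtie 1.1.1 for mapping to hg19, Picard for removing duplicates and MACS2 2.1.0.20140616 for peak calling. The role of the input and any pooling of replicates are not given in the sources used here. A legend of the study gives a false discovery limit for probe sets, without saying whether it applied to these lists. The deposited score, column 5 of each list, was read as a −log10 p-value or q-value, and the lists do not say which. They hold no read counts, so depth is unknown and no counting interval was given.

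Lines with the same interval were counted once with the highest score, which removed 15, 7, 1 and 4 lines on chromosome 20. Coordinates are counted from 1 on GRCh37. Genes came from GENCODE 44 on GRCh37. Overlap required 1 bp. Locations were assigned in the order transcript start (3 kb on both sides), UTR, exon, intron, downstream (3 kb) and intergenic. Bins of 1 Mb needed 50% called bases. Segmentation used the log2 ratio with a pseudocount of 0.1 and at least 3 bins per segment. Its penalty was 3 ln(n) times the noise variance. It was tried only on simulated steps larger than those found here, so that trial does not cover the steps reported. Motifs were searched on both strands. Python 3.11.15, numpy 2.4.6, pandas 2.3.3, scipy 1.17.1 and matplotlib 3.10.9 were used.

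The chromosome, its genes and the lists were chosen with earlier results of these data known. Named genes were the 12 with the best mean rank of peak count, the 5 of 50 kb or longer with the highest relative density per cell line and, from the lists, at most 10 each with a peak in both replicates of a cell line. Named peaks were the 3 best by mean rank of score in each cell line and in all 4 libraries. Some items that these rules named are not reported here. Genes without a peak were named outside this rule, and genes of bins were named as landmarks. CSTF1, a polyadenylation factor gene, was left out of the cystatins. Blocks joined list genes less than 300 kb apart. These blocks, the count of starts and the correlations without the last 3 bins were chosen after seeing the data. With 2 libraries per cell line no exact permutation test can go below p = 0.33. Each p-value is the share of relabellings of these libraries with a difference at least as large, and it covers these libraries only.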

Additional observations from a re-analysis of the deposited data

Results flagged for a closer look

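The difference between the arms had opposite signs in the cell lines. The relative density of 20q minus that of 20p was -0.232 and -0.211 in RT112 (replicates 1 and 2), and it was 0.109 and 0.0855 in the UM-UC-3 libraries. The signs as such were not tested, and the two-sided exact permutation test of the ratio of the arms gave p = 0.33, the lowest attainable here.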

How the results depend on the processing

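Of 91 alternative values 25 moved by more than the SD of the replicates or, for counts, by over 1.5 times. No difference between the cell lines changed sign. Counts of steps and genes, shares of bins and overlaps have no sign that could change. The replicate block gives the same differences by construction. Differences with a test were judged by their sign alone, so a change of their size was not counted as moved. With the highest-scoring 25% the ratio of the arms gave -0.283 in place of -0.217 and the GC content 0.268 in place of 0.714. The difference of relative density, RT112 minus UM-UC-3, was 0.858 for chromosome 20, 0.760 for 20q and 1.08 for 20p. With the 25% of peaks of the highest score it was 1.15, 1.002 and 1.48, and with peaks found in the other replicate 1.098, 1.01 and 1.34. Per Mb of called bases it was 1.01 for 20p. The number of steps between the cell lines, 2, was the least stable value. It was 1 with bins of 0.5 Mb, with bins of 2 Mb, with peaks found in the other replicate and with a penalty factor of 5. It was 4 with the highest-scoring 25% and 5 with a penalty factor of 2, and leaving out 1 library gave 1 to 6. Over 13 alternatives a step within 2 Mb of 30 Mb was found in 9 and one near 60 Mb in 5. Bins with RT112 higher were 45.8% under a 2-fold rule. The replicate overlap of UM-UC-3 (73.8%) was 71.9% with a reciprocal overlap of 50% and 62.5% with the highest-scoring 25%, and the overlap between cell lines (6.28%) was 4.05% and 4.57%. With the highest-scoring 25%, genes with a peak in both libraries numbered 159 (RT112) and 137 (UM-UC-3). With all peaks, but only those within 3 kb of a gene start counted, they numbered 30 and 59. The cause of these changes was not tested, and the highest-scoring sets hold fewer peaks. The replicate numbers share only a label: with the replicate block the differences were the same (-0.217 for the ratio of the arms, p = 0.5 in an exact paired permutation test, the smallest it allows). Precision is limited by 2 libraries per cell line and by the unknown depth.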
